A study of Mus musculus with 54 samples.

Results

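The respiratory chain genes were the genes whose symbols follow the usual names of subunits of complexes I to V. They were chosen by symbol alone, as those starting with mt-, Uqcr or Atp5, the Nduf subunit names, Sdha to Sdhd, and the Cox4 to Cox8 names, with pseudogenes left out. The rule found 97 of the 25149 genes in the coding tables. Of these, 84 are nuclear, with 35 in complex I, 4 in complex II, 8 in complex III, 20 in complex IV and 17 in complex V, and 13 are encoded by mitochondrial DNA, with 7 in complex I, 1 in complex III, 3 in complex IV and 2 in complex V. Ndufa4, once placed in complex I and now regarded as a complex IV subunit, was counted in complex IV with its paralog Ndufa4l2, as was Cox7a2l, a factor that joins complexes III and IV. Atp5s and Atp5sl were counted in complex V by name alone. Chain components with other names, such as Cyc1 and Ndufab1, fell outside the rule.

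RNA-seq was performed on single microdissected sides of mouse follicles. Secondary follicles of CD-1 females aged 14 to 16 days, an outbred stock with no engineered allele named, were grown for 8 days in alginate hydrogel and then kept for 12 h in maturation medium that contained rFSH (10 mIU/ml), EGF (10 ng/ml) and FBS (10%). That medium either held 1.5 IU/ml hCG, a gonadotropin that stands in for the ovulatory LH surge, or lacked it. The 4 groups were the putative unruptured side without hCG (n = 15), the putative ruptured side without hCG (n = 14), the unruptured side post-hCG (n = 12) and the ruptured side post-hCG (n = 13). Without hCG no rupture marks the side, so those sides were assigned and not observed, and cultured follicles lack the vessels and neighbouring tissue of an ovary. By its label the material was a cumulus-oocyte complex, but the methods state that this complex was taken out and that follicle sides were sequenced. Summed levels of 10 oocyte markers had medians of 0.2, 0.15, 0.15 and 0 TPM in these groups, and 1 putative unruptured library without hCG reached 136 TPM.

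Complex I takes electrons from NADH and complex II takes them from succinate in the citric acid cycle. Both pass them through complex III and cytochrome c to complex IV, which reduces oxygen, and complex V uses the proton gradient that complexes I, III and IV build to make ATP. Complexes I, III, IV and V are built from products of 2 genomes, the nuclear subunits being imported and the mitochondrially encoded ones made inside the organelle, while complex II is wholly nuclear. In the ovary, granulosa and theca cells also start steroid synthesis inside mitochondria, and luteinizing cells are known for their many mitochondria.

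Transcription of many nuclear subunit genes is known to involve the factors NRF1, GABPA, YY1, the estrogen-related receptors and CREB. RefSeq promoters of 300 bases, from 250 before to 50 after the gene start (GRCm38.p6), were found by symbol for 66 of the 84 nuclear genes, and 30 of them held at least 1 of the motifs searched on both strands (45.5%, against 13.3% of 27025 genes). The exact NRF1 palindrome, the letters capitalised in the Atp5k window, was in 5 of the 66 (7.58%, against 1.07% of all genes) and the form with any base at the fifth position, which includes it, was in 17 (25.8% against 5.19%). The YY1 motif AAGATGGCG was in 7 (10.6% against 1.64%), GABPA's CCGGAAGT in 5 (7.58% against 4.31%), the CRE TGACGTCA in 4 (6.06% against 2.03%) and the estrogen-related receptor motif TNAAGGTCA in 3 (4.55% against 1.43%). The windows of 100 bases before the start of 4 genes described in the comparisons are shown to give examples of these letters, with the motif in capitals. Each is read 5′ to 3′ along the gene. The letters in Uqcrh and Atp5g3 are the reverse complement of the motifs of GABPA and the estrogen-related receptors, and those in Atp5k and Ndufb2 read the same on both strands. They are Atp5k (chr5:108434400-108434499, minus strand), Ndufb2 (chr6:39592465-39592564, plus strand), Uqcrh (chr4:116075071-116075170, minus strand) and Atp5g3 (chr2:73911327-73911426, minus strand).
Atp5k: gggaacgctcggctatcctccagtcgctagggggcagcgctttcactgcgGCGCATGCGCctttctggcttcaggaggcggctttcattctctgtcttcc
Ndufb2: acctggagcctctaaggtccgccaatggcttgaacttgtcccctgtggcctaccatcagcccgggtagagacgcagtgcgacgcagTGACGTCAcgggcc
Uqcrh: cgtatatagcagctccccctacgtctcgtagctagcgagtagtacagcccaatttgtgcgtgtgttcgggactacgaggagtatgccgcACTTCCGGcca
Atp5g3: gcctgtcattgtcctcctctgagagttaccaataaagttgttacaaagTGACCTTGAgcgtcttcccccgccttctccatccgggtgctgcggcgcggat

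Each library held 1497138 to 2834794 counts over coding genes, so a low gene such as Cox4i2 rested on few counts per library. Levels are given as TPM, and log2 fold changes come from the counts by edgeR's quasi-likelihood test with its SE and its FDR (Benjamini-Hochberg over all genes tested), with 0.05 as threshold. The hCG condition coincided with the letter of the sample codes, B to D post-hCG and F to H without hCG, so the medium and whatever that letter marks cannot be told apart. The letter also went largely with the side, since unruptured libraries had B and C or F and G and ruptured ones C and D or G and H, and both sides were found only in C (4 and 5 libraries) and G (5 and 5). The comparisons of sides were therefore repeated within those letters. Because these are bulk samples, fewer cells of a type and less RNA per cell cannot be told apart either. Markers of theca and stroma differed between the sides, with summed medians of 561 TPM (putative unruptured) against 148 TPM (putative ruptured) without hCG and 373 against 45 TPM post-hCG. The 2 post-hCG groups did not overlap in this sum, at 123 to 1369 and 25.7 to 90.8 TPM. Of 12 such markers, 6 of 9 tested were lower on the putative ruptured side and 6 of 7 on the ruptured side post-hCG, where 2 were at 0 in every library, beside 8.98% and 11.3% of all genes lower. The marker Fbln1 was higher in both comparisons. Granulosa markers had summed medians of 2654 and 10521 TPM without hCG and 1418 and 1215 TPM post-hCG. Here 8 of 9 tested were higher on the putative ruptured side and 4 of 6 on the ruptured side post-hCG, with none lower. These stood beside 8.83% and 10.1% of all genes higher, although the granulosa sums post-hCG run the other way. Cumulus markers summed to medians of 27.4 to 52.6 TPM and those of immune, endothelial, smooth muscle and surface epithelial cells to 0.1 to 33.9 TPM. The part of these cell types in the results was not tested.

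The mitochondrially encoded genes took a smaller share of the RNA after hCG, and the nuclear genes had their lowest median share of counts on the ruptured side post-hCG. The 13 mitochondrial genes held 4.03% to 10.7% of counts (median 6.82%) on the putative unruptured side without hCG, 4.98% to 9.38% (6.70%) on the putative ruptured side, 2.05% to 5.99% (4.57%) on the unruptured side post-hCG and 2.97% to 5.93% (3.94%) on the ruptured side post-hCG. All 12 unruptured and all 13 ruptured libraries post-hCG lay below the median of the same side without hCG, and the ranges overlapped. The 84 nuclear genes held medians of 0.964%, 0.885%, 0.965% and 0.788% of counts in the same order, with ranges of 0.689% to 1.27%, 0.792% to 1.28%, 0.831% to 1.16% and 0.682% to 0.885%. Of the 13 ruptured libraries post-hCG, 13 lay below the median of the unruptured side post-hCG and 10 below its lowest library. The predicted gene Gm10800 took 4.63% to 11.7% of counts in these ruptured libraries and 0.676% to 3.98% in the unruptured ones, without overlap, and the median length of the nuclear subunits implied by counts and TPM was below the unruptured median in 12 of the 13. The part of these in the shares was not tested. The ratio of mitochondrial to nuclear counts had medians of 7.09 and 7.38 without hCG and 4.81 and 5.21 post-hCG, and 12 of 12 unruptured and 12 of 13 ruptured libraries post-hCG were below the median without hCG. As sums over the members, these shares are given as a description with no test. In shares of TPM, where short genes weigh more, the nuclear medians were 1.74%, 1.51%, 1.99% and 1.63%, so that the ruptured side was again below the unruptured side post-hCG, with 12 of 13 libraries under its lowest, but was not below the putative ruptured side.

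**Figure D1:**
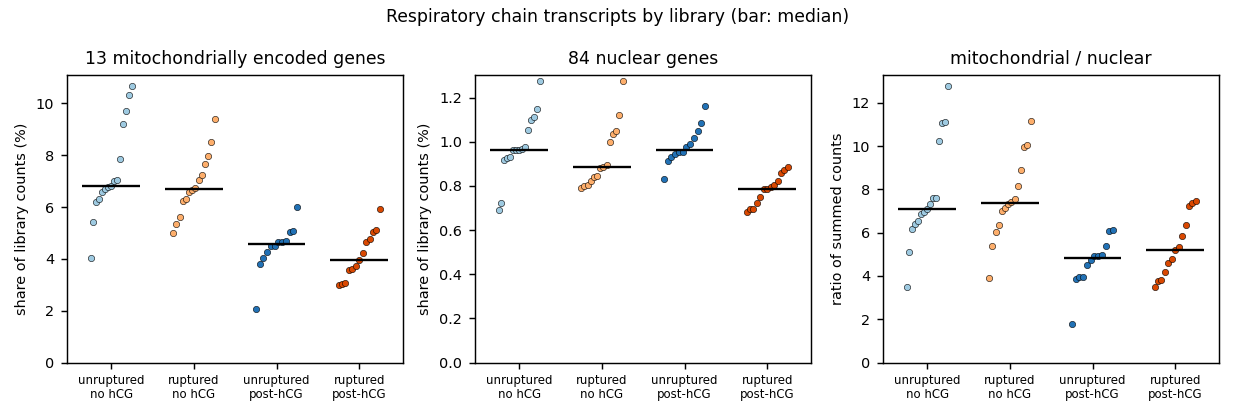
Share of counts held by the 13 mitochondrially encoded genes and by the 84 nuclear genes (percent), and their ratio, with 1 point for each library and a bar at the median of each of the 4 groups. The mitochondrial medians are 6.82% and 6.70% without hCG and 4.57% and 3.94% post-hCG, and the nuclear median is lowest, at 0.788%, on the ruptured side post-hCG.

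The first comparison asked how the 2 sides differed in the absence of hCG. Few respiratory chain genes differed, with 6 of 74 nuclear genes tested higher and 1 lower on the putative ruptured side, beside 8.83% higher and 8.98% lower among all 9063 genes tested. The median log2 fold change of the nuclear genes was 0.02 and that of all genes -0.01. Those higher were Ndufa3, Ndufc1 and Ndufs4 of complex I, Uqcr10 of complex III, and Atp5g3 and Atp5j of complex V. Sdha, the flavoprotein of succinate dehydrogenase, was lower. Without hCG it was at 37.9 to 58.3 TPM (median 51.8) in putative unruptured libraries and at 26.4 to 52.1 TPM (39.6) in putative ruptured ones, where 13 of 14 libraries lay below the other median although the groups overlapped, and the log2 fold change was -0.30 ± 0.08 (edgeR FDR = 0.00908). Ndufa3, a small accessory subunit of the complex I membrane arm, had the largest rise among the nuclear genes, 0.88 ± 0.17 (edgeR FDR = 0.000377), from a median of 66.4 TPM (23.9 to 100.5) to 85.6 TPM (47.5 to 138), with wide overlap. Of the mitochondrial genes, 1 of 12 tested was higher, mt-Atp8. Within the libraries of code letter G alone, 5 against 5, none of the nuclear genes passed in edgeR (3 higher and 2 lower at an unadjusted p under 0.05), beside 0.0331% of all genes higher. On TPM with limma 1 nuclear gene was higher and 3 were lower, beside 4.62% and 6.06% of all genes. The median of the nuclear genes was -0.089 there, and that of all genes -0.034.

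The second comparison asked how the sides differed after hCG, once rupture had marked them. With edgeR 0 of 75 nuclear genes tested were higher on the ruptured side and 31 were lower, beside 10.1% higher and 11.3% lower among all 8585 genes. Of the 75, 69 had a negative and 6 a positive log2 fold change, with a median of -0.26 against 0.01 for all genes. The count of genes higher was 0 with DESeq2 too, and 0 at an unadjusted p under 0.05. Complex IV held the largest share, 9 of 13 tested (median -0.43), followed by complex I with 15 of 35, complex III with 3 of 8, complex V with 4 of 15 and complex II with 0 of 4 (1 at an unadjusted p under 0.05). Within complex I, 1 of the 7 core subunits that carry the flavin and iron-sulfur clusters and 14 of the 28 accessory subunits were lower. Among mitochondrial genes 1 of 12 was lower, mt-Nd6, and it did not pass without the length trend (-0.26, edgeR FDR = 0.335) or with the replicate number as a block (-0.55, edgeR FDR = 0.0558).

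Cox4i2, an isoform of cytochrome c oxidase subunit IV that is known to be induced when oxygen is low, differed most. Its level was 9.81 to 40.9 TPM (median 27.0) on the unruptured side and 4.18 to 14.3 TPM (8.46) on the ruptured side. Each of the 13 ruptured libraries was lower than the unruptured median, the ranges overlapped in part, and the log2 fold change was -1.31 ± 0.21 (edgeR FDR = 3.04e-05). Its partner isoform Cox4i1, the common form, was far more abundant at 820 to 1147 TPM (991) and 508 to 934 TPM (730), and differed by -0.33 ± 0.09 (edgeR FDR = 0.00534).

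Ndufv3, an accessory subunit at the NADH-oxidising end of complex I, was at 35.8 to 87.9 TPM (median 59.6) in unruptured libraries and 15.9 to 43.3 TPM (29.8) in ruptured ones. Every ruptured library was below the unruptured median, and the change was -0.82 ± 0.11 (edgeR FDR = 2.11e-06). Ndufb2, of the membrane arm, stood at 23.6 to 63.2 TPM (37.7) against 7.36 to 37.1 TPM (25.0), with -0.87 ± 0.16 (edgeR FDR = 0.00014). Uqcrh, the hinge protein of complex III beside cytochrome c1, stood at 168 to 247 TPM (201) against 91.3 to 196 TPM (135), with -0.56 ± 0.11 (edgeR FDR = 0.000347). In both genes all 13 ruptured libraries were below the unruptured median and the groups overlapped. Atp5j2, subunit f of the membrane part of ATP synthase, stood at 42.1 to 101 TPM (70.3) against 10.7 to 55.8 TPM (36.2), a change of -0.77 ± 0.12 (edgeR FDR = 1.2e-05). Groups did not overlap for 2 of the 75 nuclear genes tested, and the same count over all genes was not made. Cox7c, a small structural subunit of complex IV, was at 486 to 683 TPM on the unruptured and 255 to 455 TPM on the ruptured side (-0.57 ± 0.09, edgeR FDR = 3.27e-05). Ndufa13, an accessory subunit also known as GRIM-19, was at 14.9 to 31.0 and 8.62 to 14.8 TPM (-0.51 ± 0.09, edgeR FDR = 9.85e-05), and its transcript shares bases with Tssk6 in the annotation, so reads of the 2 genes may be mixed.

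**Figure D2:**
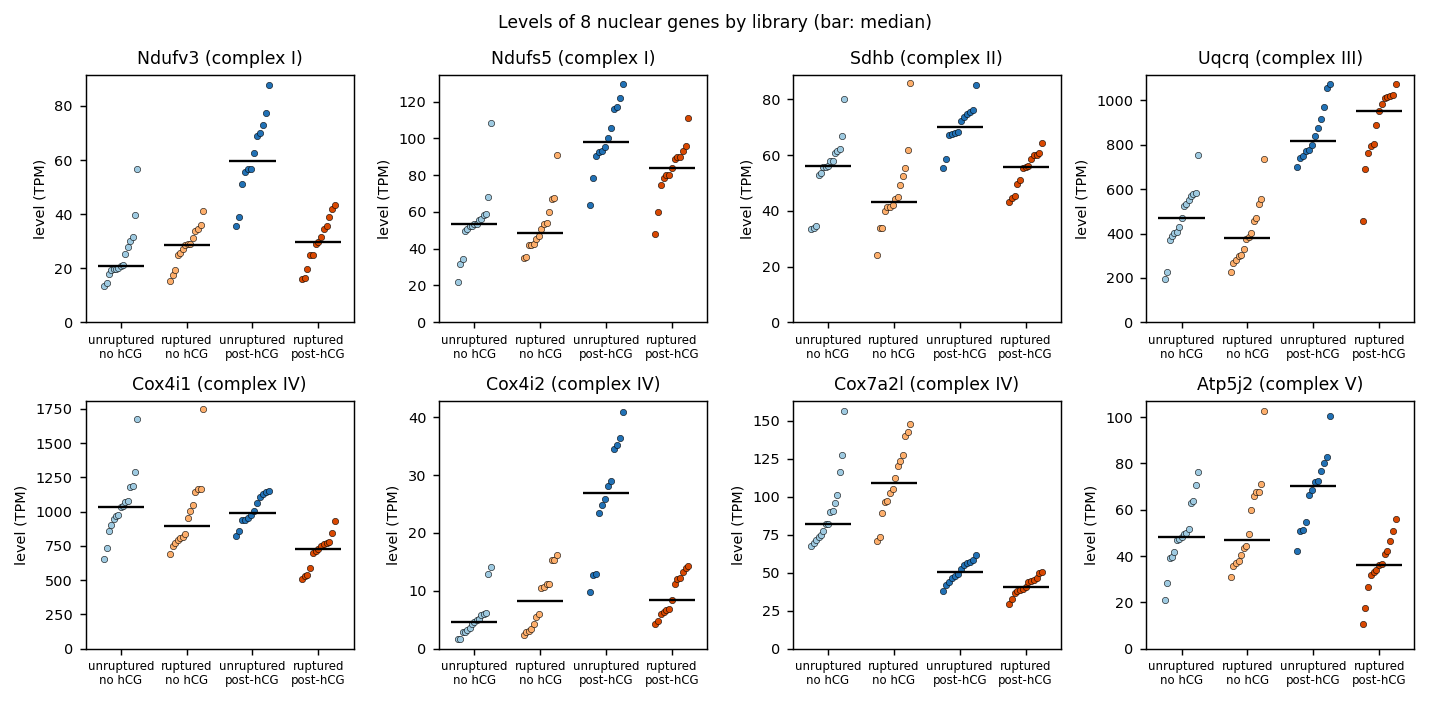
TPM of Ndufv3, Ndufs5, Sdhb, Uqcrq, Cox4i1, Cox4i2, Cox7a2l and Atp5j2, with 1 point per library and a bar at the median of each of the 4 groups. The Cox4i2 medians are 4.64, 8.22, 27.0 and 8.46 TPM in the order of the groups, and the Cox7a2l ranges post-hCG lie below those without hCG on each side.

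The genes lower on the ruptured side were mostly those with short transcripts. Length was taken from the deposited tables as the ratio of a gene's count to its TPM, set to 1 for the median gene, and the nuclear members had a median of 0.186 (0.0392 to 1.15). Among the shorter 38, 24 were lower post-hCG, against 7 of the longer 36, and among all genes shorter than 0.37 of the median gene 24.2% were lower, against 10.3% of the others. Pearson's r of log2 length with log2 fold change was 0.38 over 74 nuclear genes, as a description across genes of the same libraries. When a length trend fitted to all genes in each library was taken out, 13 of the nuclear genes were lower and 5 higher (median -0.07), beside 11.3% and 10.3% of all genes. Cox4i2, Ndufv3 and Atp5j2 were still lower there, in limma on TPM and within code letter C alone. In the libraries of letter C, 4 against 5, 14 nuclear genes were lower in all, beside 5.04% of all genes. Cytosolic ribosomal proteins, another group of short abundant transcripts, were lower for 66 of 81 tested (median -0.41) in the same comparison. Whether length or cell type had a part in these differences was not tested beyond this.

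**Figure D3:**
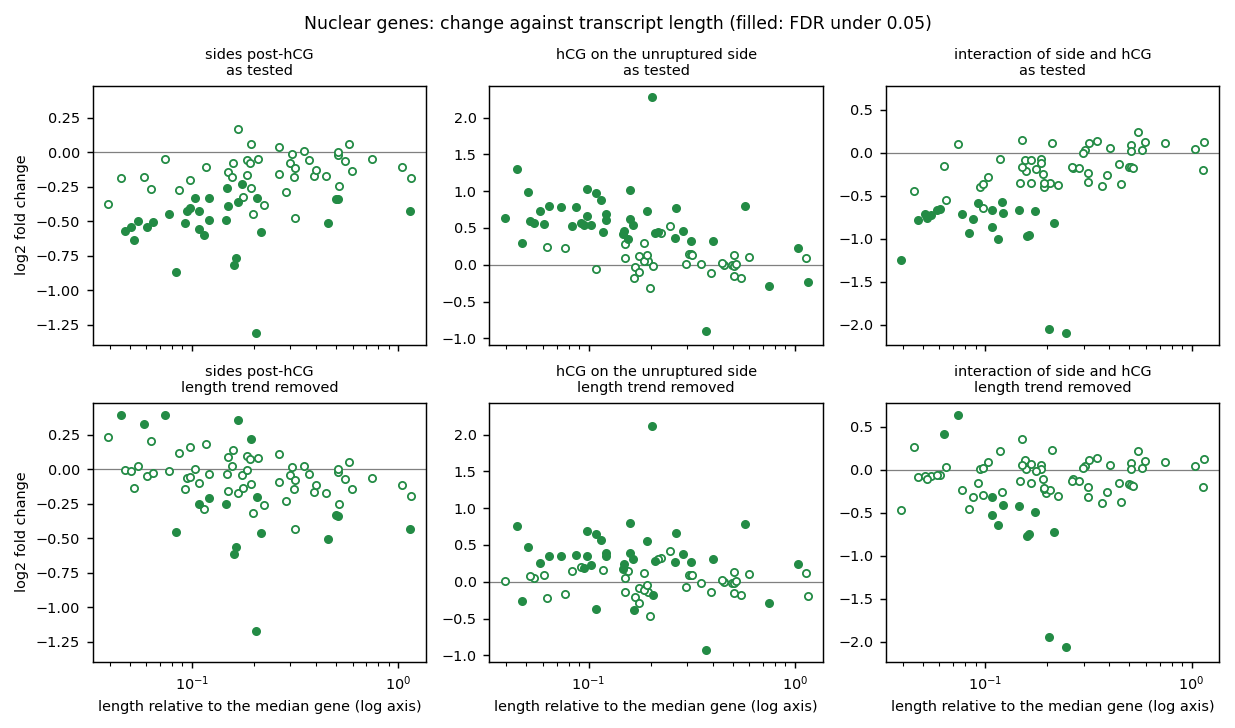
Log2 fold change of each nuclear respiratory chain gene (y) against its length relative to the median gene (x, log axis), for the sides post-hCG, hCG on the unruptured side and the interaction, before (upper panels) and after (lower panels) the length trend was taken out, with filled points for FDR under 0.05. Before, r is 0.38 for the sides post-hCG and -0.51 for hCG on the unruptured side, and after, it is -0.32 and -0.15.

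The third comparison asked what hCG changed on the unruptured side. Most of the nuclear subunits that passed rose there, and the mitochondrial ones that passed fell. Of 77 nuclear genes tested, 40 rose and 3 fell, beside 25.4% higher and 27.7% lower among all 9320 genes, with a median log2 fold change of 0.33 (all genes -0.03). The 3 that fell were Ndufs1, Sdha and Cox7a2l. None of the 13 mitochondrial genes rose and 6 fell, with a median of -0.42. By complex, 19 of 35 nuclear genes rose in complex I, 1 of 4 in complex II, 4 of 8 in complex III, 10 of 14 in complex IV and 6 of 16 in complex V. Of the complex I core, 3 of 7 rose and 1 fell, and of the accessory subunits 16 of 28 rose. The length split was also seen here, as 28 of the shorter 38 rose against 11 of the longer 37, and 29 nuclear genes rose and 6 fell without the length trend, beside 27.5% and 28.9% of all genes. Scaled by library totals alone, which shifted the median of all genes to -0.24, 26 rose and 8 fell, beside 15.7% and 41.0%.

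Cox4i2 rose most, by 2.27 ± 0.27 (log2, edgeR FDR = 1.59e-08). Its level was 1.57 to 14.1 TPM (median 4.64) without hCG and 9.81 to 40.9 TPM (27.0) post-hCG, with all 12 libraries above the earlier median. Uqcrq, a small ubiquinol-binding subunit and the most abundant nuclear gene of complex III, rose from 195 to 754 TPM (470) to 701 to 1072 TPM (819), by 1.3 ± 0.14 (edgeR FDR = 3.01e-09). Only the ends of those ranges overlapped. Ndufs5 of complex I rose by 1.03 ± 0.15 (edgeR FDR = 7.69e-07), from a median of 53.5 TPM (21.8 to 108) to 97.8 TPM (64.0 to 129). Ndufv3 rose by 1.01 ± 0.13 (edgeR FDR = 4.2e-08), from 20.7 TPM (13.5 to 56.6) to 59.6 TPM (35.8 to 87.9). For both, all 12 libraries were above the earlier median and the groups overlapped. Cox8a, the ubiquitous isoform of the smallest complex IV subunits, rose by 0.97 ± 0.13 (edgeR FDR = 1.83e-07) with no overlap, from 112 to 335 TPM (256) to 345 to 590 TPM (423). Atp5d, the delta subunit in the rotor of ATP synthase, rose by 0.78 ± 0.11 (edgeR FDR = 3.63e-07), from a median of 219 TPM (128 to 331) to 369 TPM (297 to 471).

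The fourth comparison asked the same of the ruptured side. There the nuclear genes were split, with 15 higher and 14 lower of 75 tested, beside 29.7% higher and 30.4% lower among all 8531 genes, and a median of 0.01. The split depended on scaling, since by library totals alone, with the median of all genes at -0.32, 6 were higher and 41 lower, beside 16.3% and 49.4%. In complex I 7 rose and 5 fell, in complex II 1 rose, in complex III 1 rose and 1 fell, in complex IV 3 rose and 3 fell, and in complex V 3 rose and 5 fell. Of 12 mitochondrial genes tested, 7 fell and none rose (median -0.64).

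Several genes moved the same way with hCG on both sides, each side having its own control libraries. Uqcrq rose by 0.86 ± 0.13 on the ruptured side (edgeR FDR = 9.87e-07), from a median of 382 TPM (227 to 738) to 950 TPM (454 to 1073). Ndufa4 rose by 0.78 ± 0.15 (edgeR FDR = 7.16e-05) and 0.89 ± 0.15 (edgeR FDR = 8.1e-06), with medians of 166 and 124 TPM without hCG against 270 and 253 TPM post-hCG. Sdhb, the iron-sulfur subunit of complex II, rose less, by 0.33 ± 0.11 (edgeR FDR = 0.0112) and 0.39 ± 0.11 (edgeR FDR = 0.00196), with medians of 56.1 and 43.2 TPM before and 70.2 and 55.6 TPM after. The membrane anchors of the same complex did not pass on either side, Sdhc at 0.02 ± 0.14 and -0.16 ± 0.17 and Sdhd at 0.02 ± 0.13 and -0.11 ± 0.11 (log2). 

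Cox7a2l fell on both sides, and neither side overlapped with its control. Without hCG it was at 67.5 to 157 TPM (median 82.3) in putative unruptured libraries and at 70.6 to 148 TPM (109) in putative ruptured ones, against 38.0 to 62.0 TPM (50.6) and 29.2 to 50.7 TPM (40.4) post-hCG. The falls were -0.90 ± 0.14 (edgeR FDR = 2.16e-06) and -1.28 ± 0.12 (edgeR FDR = 4.85e-11), and the sides did not pass against each other in either medium. Uqcrh passed on the ruptured side only, falling by 0.92 ± 0.14 (edgeR FDR = 1.39e-06), while its change on the unruptured side was -0.06 ± 0.13.

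**Figure D4:**
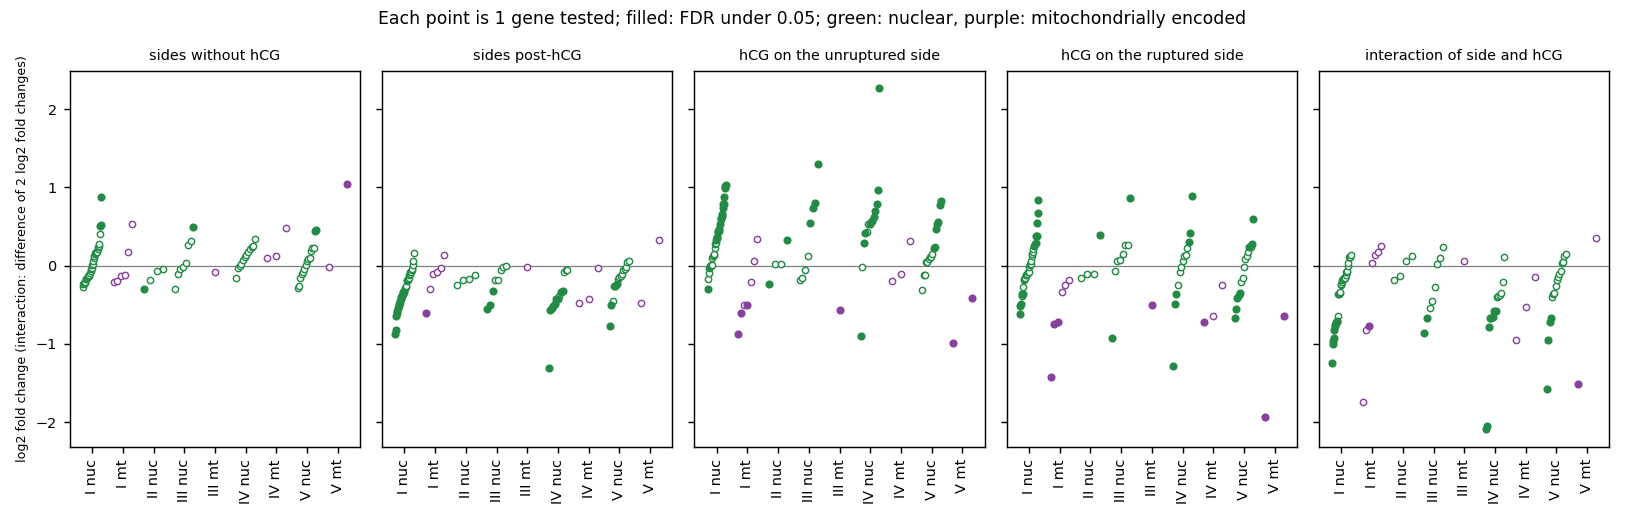
Log2 fold changes of the tested genes (y), 1 point per gene, by complex and genome (x), in a panel for each comparison and for the interaction, with filled points for FDR under 0.05, green for nuclear and purple for mitochondrial genes. Post-hCG, 31 of 75 nuclear genes are lower on the ruptured side and none higher, and with hCG on the unruptured side 40 of 77 are higher while 6 of 13 mitochondrial genes are lower.

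Whether hCG changed a gene differently on the 2 sides was tested by the interaction, the change on the ruptured side minus that on the unruptured side. Of 77 nuclear genes tested, 24 had a lower and 0 a higher value (also 0 with DESeq2 and at an unadjusted p under 0.05), beside 4.26% higher and 4.65% lower among all 10013 genes, with a median of -0.34 (all genes -0.01). Complex IV held 8 of 14, complex I 10 of 35, complex III 2 of 8, complex V 4 of 16 and complex II 0 of 4. In complex I the 10 were all accessory subunits, and 0 of the 7 core subunits passed, their median being 0.04. The interaction was called for 20 of the shorter 38 and 3 of the longer 37 nuclear genes, and 11 were lower and 2 higher without the length trend, beside 5.31% and 5.34% of all genes. It was -0.96 ± 0.17 for Ndufv3 (edgeR FDR = 0.000117), -0.96 ± 0.18 for Atp5j2 (edgeR FDR = 0.000272) and -2.05 ± 0.40 for Cox4i2 (edgeR FDR = 0.000477). Cox4i2 had a median of 8.22 TPM (2.37 to 16.2) on the putative ruptured side without hCG and 8.46 TPM (4.18 to 14.3) post-hCG, a change of 0.22 ± 0.27 that did not pass. Ndufa6, a complex I subunit of the arm facing the matrix, rose by 0.88 ± 0.13 on the unruptured side (edgeR FDR = 8.41e-07) and changed by -0.12 ± 0.14 on the ruptured side (interaction -1.0 ± 0.19, edgeR FDR = 0.000408). Ndufa4l2, an Ndufa4 paralog known as a hypoxia target, was low, with medians of 5, 5.94, 10.1 and 3.00 TPM in the order of the groups (interaction -2.09 ± 0.60, edgeR FDR = 0.0191). Atp5k, subunit e of ATP synthase, also passed on few counts (-1.58 ± 0.37, edgeR FDR = 0.00377), with medians of 37.1, 29.0, 42.2 and 24.2 TPM.

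Messenger RNAs of the mitochondrial genes are cut from long shared transcripts, and the estimated changes with hCG ranged widely among them. mt-Atp6, a membrane subunit of ATP synthase, ran from 15690 to 36160 TPM (median 20349) and 13245 to 28569 TPM (20569) before hCG on the 2 sides in that order, and from 2337 to 15752 TPM (11813) and 8670 to 17108 TPM (12270) post-hCG. It fell by 0.99 ± 0.21 (edgeR FDR = 0.000153) on the unruptured and by 0.64 ± 0.17 (edgeR FDR = 0.00127) on the ruptured side. mt-Nd2, of the complex I membrane arm, fell by 0.88 ± 0.20 (edgeR FDR = 0.00052) and 0.74 ± 0.16 (edgeR FDR = 0.000162). mt-Cytb, cytochrome b of complex III, fell by 0.56 ± 0.16 (edgeR FDR = 0.00318) and 0.50 ± 0.13 (edgeR FDR = 0.00126), and its ruptured libraries, at 5760 to 8856 TPM without and 3709 to 5681 TPM with hCG, did not overlap. mt-Nd3 fell by 0.60 ± 0.23 (edgeR FDR = 0.0287) and 1.42 ± 0.22 (edgeR FDR = 1.19e-06). The catalytic subunit mt-Co1, at a median of 4557, 4818, 4613 and 3716 TPM, did not pass on either side (-0.11 ± 0.17 and -0.25 ± 0.15), nor did mt-Nd4 or mt-Nd5, while mt-Co2 passed on the ruptured side (-0.73 ± 0.19, edgeR FDR = 0.00178) and mt-Nd1 on the unruptured side (-0.50 ± 0.20, edgeR FDR = 0.0394). The number that fell on the unruptured side was 3 without the unruptured post-hCG library of replicate 1, which had the lowest mitochondrial share (2.05%), and 4 without the library of replicate 1 of the putative unruptured side, which had the most oocyte marker RNA. mt-Co3 was too variable to compare, at 0.03 to 1102 TPM over all groups, and mt-Nd4l had a median of 0 TPM in 3 of the 4 groups.

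mt-Nd6, a complex I gene, lies on the opposite strand from the other mitochondrial members. Its level was 77.3 to 570 TPM (median 275), 170 to 364 TPM (244), 69.5 to 379 TPM (261) and 103 to 236 TPM (150) in the order of the groups. It changed by 0.06 ± 0.20 with hCG on the unruptured side and fell by 0.72 ± 0.12 (edgeR FDR = 4.71e-06) on the ruptured side, with an interaction of -0.78 ± 0.24 (edgeR FDR = 0.0314). It shares 14 bases with mt-Nd5 on the other strand, and the sources used here do not state that counting used strand.

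mt-Atp8, the small partner of mt-Atp6 in ATP synthase, had the largest change among mitochondrial genes. Its counts rose by 1.05 ± 0.13 (edgeR FDR = 1.8e-06) on the putative ruptured side and changed with hCG by -0.42 ± 0.18 (edgeR FDR = 0.0439) on the unruptured and by -1.93 ± 0.15 (edgeR FDR = 3.1e-13) on the ruptured side. In TPM its medians were 11281, 12264, 9243 and 5752, and the ruptured groups, at 10042 to 17411 and 2700 to 7914, did not overlap. The length implied by its count and TPM also moved, with medians of 0.00610, 0.0101, 0.00536 and 0.00585 of the median gene. All 14 putative ruptured libraries lay above the highest putative unruptured one, and on TPM with limma the difference between sides without hCG was 0.14 (FDR = 0.591) while the change with hCG on the ruptured side was -1.28. This gene and mt-Atp6 share 43 bases in the same strand (mitochondrial genome of GRCm38, chrM:7927-7969), so reads there belong to both. The stretch chrM:7907-7989, plus strand, is shown because it holds that shared part, in capitals, with the start codon of mt-Atp6 first.
mt-Atp8 and mt-Atp6: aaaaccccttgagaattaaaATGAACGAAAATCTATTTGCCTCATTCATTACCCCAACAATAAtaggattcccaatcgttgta

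**Figure D5:**
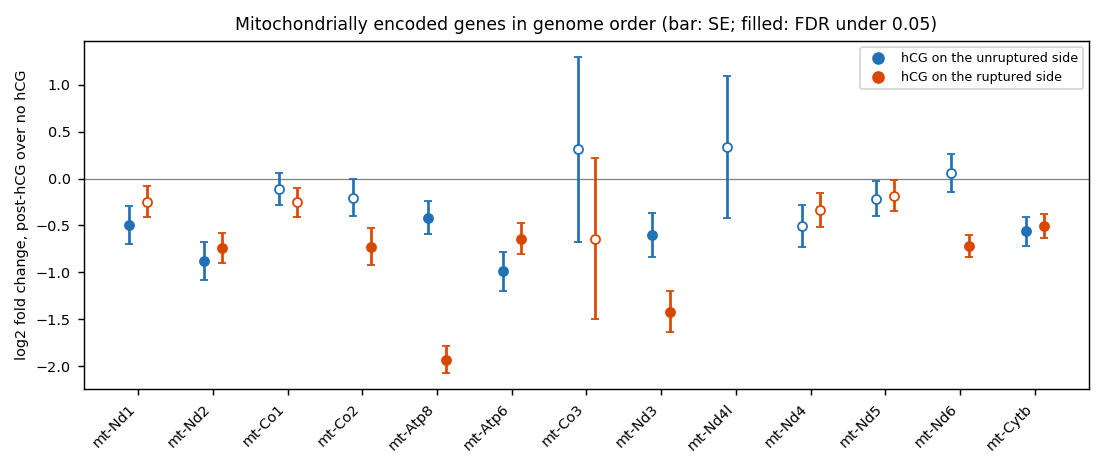
Log2 fold change with hCG of the mitochondrially encoded genes in genome order (x), with SE bars and filled points for FDR under 0.05, for the unruptured and the ruptured side. mt-Atp8 stands at -0.42 and -1.93 and mt-Nd6 at 0.06 and -0.72 on the 2 sides, while mt-Nd2 stands at -0.88 and -0.74.

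Subunits with tissue-specific isoforms were carried by their common forms. Cox6a1 had medians of 281, 264, 428 and 335 TPM, Cox6b1 of 345, 264, 385 and 291 TPM and Cox7a2 of 85.9, 89.7, 116 and 71.8 TPM in the order of the groups. The muscle or heart isoforms Cox6a2 and Cox7a1 and the testis isoform Cox6b2 had a median of 0 TPM in each group, and Cox8b and Cox8c were at 0 in every library. These isoforms, with Cox7b2 and Atp5s, were in no test because of low counts. The 3 genes for the c ring of ATP synthase encode the same mature protein and differed in level, with medians of 109, 70.9, 110 and 93.1 TPM for Atp5g1, 33.9, 34.0, 31.6 and 16.9 TPM for Atp5g2 and 308, 341, 300.2 and 274 TPM for Atp5g3. Atp5g3 was higher on the putative ruptured side by 0.46 ± 0.13 (edgeR FDR = 0.015), and Atp5g2 and Atp5g3 fell with hCG on the ruptured side, by 0.67 ± 0.27 (edgeR FDR = 0.0344) and 0.34 ± 0.13 (edgeR FDR = 0.0254). Near copies, aligned over at least 200 bases at 95% identity, exist in the genome for 25 nuclear and 9 mitochondrial members, so part of their reads could have been placed elsewhere.

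Among other genes of the organelle, the counts stand beside the shares of all genes that rose (25.4% on the unruptured and 29.7% on the ruptured side) or fell (27.7% and 30.4%) with hCG. Of the mitochondrial ribosomal proteins, which make the mitochondrially encoded subunits, 38 of 76 tested rose and 1 fell on the unruptured side and 45 rose and 7 fell on the ruptured side, with Mrps23 at 1.79 ± 0.14 and 2.13 ± 0.11 (log2, edgeR FDR = 1.35e-12 and 8.95e-18). Assembly factors of complexes II to V rose for 9 of 22 and 14 of 21 tested, with none lower, led by the copper chaperone Cox17 (1.35 ± 0.15, edgeR FDR = 3.28e-09) and by Sdhaf1 (1.22 ± 0.20, edgeR FDR = 3.66e-06). Assembly factors of complex I rose for 2 of 10 on the unruptured side, under that share, and for 4 of 6 on the ruptured side, with Ecsit at 1.03 ± 0.15 and 1.3 ± 0.20. Between sides post-hCG, 4 mitochondrial ribosomal proteins were higher and 2 lower of 76, under the 10.1% and 11.3% of all genes. In that comparison 0 of 7 complex I assembly factors passed. The interaction was lower for 1 of 77 mitochondrial ribosomal proteins, beside the 24 of 77 nuclear subunits and 4.65% of all genes. For the cytosolic ribosomal proteins it was lower for 17 and higher for 0 of 81 (median -0.175), so lower values were not particular to the nuclear subunits. With hCG, 21 of these 81 rose and 0 fell on the unruptured side, and 7 rose and 18 fell on the ruptured side.

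Further lists are described in the same way. Carriers and import factors rose for 9 and fell for 1 of 18 on the unruptured side and rose for 12 and fell for 2 on the ruptured side, led by the prohibitin Phb2 (1.24 ± 0.10 and 1.56 ± 0.08). Citric acid cycle enzymes rose for 5 and fell for 3 of 16, then 6 and 2, which on the unruptured side is close to the shares of all genes. Genes that copy and express mitochondrial DNA rose for 7 and fell for 3 of 21 on the unruptured side and rose for 7 and fell for 4 of 18 on the ruptured side, with Pnpt1, an RNA exonuclease and import factor of mitochondria, at 1.85 ± 0.16 and 1.82 ± 0.19. Regulators of mitochondrial biogenesis rose for 1 and fell for 3 of 9, then 0 and 4. Mitophagy genes rose for 1 and fell for 4 of 8, then 1 and 5, and the riser on both sides was Bnip3 (2.56 ± 0.26 and 1.59 ± 0.21). Of the pyruvate dehydrogenase kinases, uncoupling proteins and related genes, 6 of 9 tested rose and 2 fell on the unruptured side, then 4 and 2. Ucp2, an uncoupling protein, rose by 1.85 and 1.38, and Pdk1, a kinase of the same action as Pdk4, by 1.18 and 0.60. Pdk4, a kinase that blocks the entry of pyruvate into the citric acid cycle, changed by -2.74 ± 0.26 (edgeR FDR = 1.12e-10) and -3.62 ± 0.16 (edgeR FDR = 5.26e-19). Of 5 chain components named outside the rule, 0 were higher and 1 was lower on the ruptured side post-hCG. Their median log2 fold change was -0.06, and 10.1% of all genes were higher and 11.3% lower. The gene that was lower was Usmg5, a further ATP synthase subunit (-0.73 ± 0.15, edgeR FDR = 0.000729).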

How the data were processed

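Libraries were made by Smart-Seq2 and Nextera XT from single follicle sides, 54 in all. The authors aligned reads with HISAT2 to the mouse genome (GRCm38) and deposited estimated counts per coding gene in a table, not normalized. The authors also deposited TPM, scaled for gene length and library total. The counting program is not given in the sources used here, and ComBat-seq, named in the methods, may or may not have been applied to the counts. The submitters' processing notes name Seurat 4. Members and gene lists were chosen with earlier results of these data known. Expected counts, of which 72.2% of non-zero values were whole, were rounded. In edgeR 4.0.16 (R 4.3.3), genes passed filterByExpr with a minimum count of 10 and of 15 in total, TMM gave the scaling, and the quasi-likelihood F test was run for each pair of groups, with the interaction fitted over all 4 groups. SE was taken from the log2 fold change and F. Named genes were, in each complex and comparison, the largest rise and fall past an FDR of 0.05 at a mean CPM of at least 1, the most abundant nuclear gene, the isoform families, complex II, all mitochondrial genes, the 8 largest interactions, and the leading gene of each other list. Some others were named after their values were seen. Alternatives were DESeq2 1.42.0, limma 3.58.1 on log2(TPM + 1), other scalings and filters, a length trend, single code letters and libraries left out. The test was checked on simulated data. Positions follow GENCODE M21. The labels do not say whether libraries came from separate animals, so p-values measure the spread between these libraries.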

Additional observations from a re-analysis of the deposited data

Results flagged for a closer look

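The change with hCG differed between the ruptured and the unruptured side for 26 respiratory chain genes, by a test of the difference itself (edgeR, interaction of side and medium, 8.92% of all genes tested called in either direction). All 26 values were negative, so the change on the ruptured side was the lower one. In complex I the log2 differences were -1.25 for Ndufa3, -1.0 for Ndufa6, -0.96 for Ndufv3, -0.93 for Ndufb2, -0.82 for Ndufb3, -0.77 for Ndufc1, -0.76 for Ndufa5, -0.72 for Ndufa7, -0.71 for Ndufa1, -0.70 for Ndufa2 and -0.78 for the mitochondrial gene mt-Nd6. In complex III they were -0.87 for Uqcrh and -0.67 for Uqcr10. In complex IV they were -2.09 for Ndufa4l2, -2.05 for Cox4i2, -0.78 for Cox7c, -0.67 for Cox8a, -0.67 for Cox7a2, -0.65 for Cox5b, -0.58 for Cox6c and -0.58 for Cox6a1. In complex V they were -1.58 for Atp5k, -0.96 for Atp5j2, -0.72 for Atp5e, -0.67 for Atp5j and -1.52 for the mitochondrial gene mt-Atp8. Of the 26, 11 were called with limma on TPM. Without the length trend 11 of the 25 then tested were called, and mt-Atp8 was not called and changed direction. Ndufa4l2 and Atp5k rested on few counts.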

How the results depend on the processing

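Named genes gave 2474 values under the alternatives. Of these, 2269 stayed on the same side of the threshold, 99 came to pass and 97 ceased to pass. In 9 the direction changed and the main fit or the alternative passed. Where neither passed, a change of direction was counted among the 2269. The nuclear genes higher on the putative ruptured side (6) became 0 in code letter G alone, 1 with limma at either pseudocount and 10 without the length trend. Those lower on the ruptured side post-hCG (31) became 14 in letter C alone, 51 with library totals, 52 and 53 with limma and 13 without the length trend. All genes moved as well, with 21% lower by library totals and 22.3% and 22.5% by limma, against 11.3%. With library totals, 26 rather than 40 rose on the unruptured side, 6 rather than 15 rose and 41 rather than 14 fell on the ruptured side, and 11 rather than 7 mitochondrial genes fell there, as with limma (11). The nuclear interaction (24) became 13 with limma, where 6.87% to 7.24% of all genes were lower against 4.65%, and 11 without the length trend. The mitochondrial interaction (2) became 1 with limma, without a filter and with the block, and 0 without the length trend. Without replicate 1 of an unruptured group, alternatives chosen after seeing the data, the counts were 6, 30, 38 to 44 and 22 to 24 for the nuclear genes and 3 to 4 (from 6) for the mitochondrial genes on the unruptured side. Other libraries were not left out in turn, since each group held more than 5. In TPM the mitochondrial shares were 10.5%, 10.7%, 7.75% and 6.29% and the nuclear shares 1.74%, 1.51%, 1.99% and 1.63%. The direction changed for Atp5g3 between the sides without hCG in letter G (-0.011), for Ndufa4 (0.39), Uqcr10 (0.33), Uqcrq (0.40) and mt-Atp8 (0.66) post-hCG and the interaction of mt-Atp8 (0.10) without the length trend, and for Atp5b (-0.092), Cox8a (-0.009) and Ndufv3 (-0.26) with hCG on the ruptured side by library totals. The causes were not tested. Depth limits the low genes most, such as Cox4i2, Ndufa4l2 and Atp5k.

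Replicate numbers were shared between groups, and the labels do not say whether they pair the libraries. Beyond a correlation of 0.1, only 2 of 14, 3 of 12, 1 of 12 and 3 of 13 same-numbered pairs deviated together. Among the same libraries, 2, 3, 1 and 3 correlated best with their own number. Low correlations cannot show that such sides came from separate follicles, so pairing stays unknown. With the replicate block the nuclear counts were 5, 34, 36, 16 and 13, and 25, and the mitochondrial counts 6 and 8. With the block mt-Nd6 no longer passed between the sides post-hCG (-0.55).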
